A study of Mus musculus with 18 samples.

Results

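A set of 10 genes of NF-kappaB feedback and activation was followed through skin cells of mice with and without a tissue expander. The set holds Tnf, Nfkb1, Nfkb2, Relb, Nfkbia, Nfkbiz, Tnfaip3, Tnip1, Tnip3 and Cd83. They were chosen by name, as the rows with these symbols in all 10 mRNA matrices, and each symbol matched 1 of the 32285 genes. Mice of both arms were operated on: from a cut near the tail, a path was opened beneath the skin up to the neck. A hydrogel expander was put into that path in the expanded arm, and none in the control arm. Skin was collected after 1, 2 or 4 days, and living cells that excluded DAPI were sorted and run as 10x Genomics 3′ libraries. The 10 libraries were 5 control and 5 expanded ones, which came from sequencing rounds 1 and 2 on days 1 and 2 and from round 1 on day 4. Strain, age and sex were not given in the labels used here. The mice of an arm in a round were pooled in 1 tube, so the arm and the reaction cannot be told apart within a round, and p-values over libraries measure only the spread between these libraries. Values in the text are always in the order day 1 round 1, day 1 round 2, day 2 round 1, day 2 round 2 and day 4.

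NF-kappaB is a family of dimeric transcription factors that wait in the cytoplasm, bound by inhibitor proteins, until a signal such as tumour necrosis factor (TNF), interleukin 1, a microbial product or tissue damage releases them. In the canonical pathway the kinase IKK marks the inhibitor IkappaBalpha for destruction, and dimers with RelA or c-Rel enter the nucleus. In the non-canonical pathway, receptors such as CD40 and the lymphotoxin beta receptor lead to processing of the Nfkb2 product and to dimers with RelB. Many of the genes switched on then act back on the pathway: Nfkbia encodes IkappaBalpha itself, Tnfaip3 encodes the ubiquitin-editing enzyme A20, and Tnip1 and Tnip3 encode the A20-binding proteins ABIN-1 and ABIN-3. Nfkbiz encodes the nuclear protein IkappaBzeta, which is required for a subset of secondary response genes. Nfkb1 and Nfkb2 encode the precursors p105 and p100, which are inhibitors as whole proteins and transcription factor subunits once processed. Tnf is the best known cytokine of the pathway and is both its trigger and its target, and CD83 is a surface protein of activated and mature dendritic cells. In skin, resident macrophages, dendritic cells, mast cells and keratinocytes all use the pathway after injury.

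The promoters are shown because the members are known for answering to the factor that several of them encode. RefSeq (GRCm38.p6) start sites with a promoter window were present for 6 of the 10 members: Tnf, Nfkbia, Tnip3, Tnfaip3, Tnip1 and Nfkb2, and none was present for Nfkb1, Nfkbiz, Relb and Cd83. The 250 bases upstream of each start site were searched on both strands for the kappaB consensus of 10 bases. A match was found for 5 of the 6 members, in 6 of their 9 windows. Of all 32851 windows of that length, 1643 (5.0%) held a match. Windows are written 5′ to 3′ on the strand of the gene, in lower case, with the match in capitals. A match is a description of the letters, not a site shown to be bound. The Tnip3 window at chr6:65590148-65590397 (plus strand) had a match that began 54 bases before the start site. The Nfkbia window at chr12:55492648-55492897 (minus strand) had one that began 29 bases before it. The Tnfaip3 window at chr10:19015411-19015660 (minus strand) had one that began 12 bases before it, and the second Tnfaip3 window had none. The Tnf window at chr17:35202008-35202257 (minus strand) had no match to these letters.
Tnip3: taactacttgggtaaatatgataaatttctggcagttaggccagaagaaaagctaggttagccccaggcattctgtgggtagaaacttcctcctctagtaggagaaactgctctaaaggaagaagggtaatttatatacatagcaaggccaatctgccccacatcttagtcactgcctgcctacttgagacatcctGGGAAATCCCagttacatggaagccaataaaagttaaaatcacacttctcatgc
Nfkbia: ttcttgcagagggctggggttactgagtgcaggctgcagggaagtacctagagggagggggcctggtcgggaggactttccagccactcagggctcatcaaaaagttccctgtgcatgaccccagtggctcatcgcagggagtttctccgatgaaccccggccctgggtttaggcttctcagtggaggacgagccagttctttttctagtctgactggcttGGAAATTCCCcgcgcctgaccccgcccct
Tnfaip3: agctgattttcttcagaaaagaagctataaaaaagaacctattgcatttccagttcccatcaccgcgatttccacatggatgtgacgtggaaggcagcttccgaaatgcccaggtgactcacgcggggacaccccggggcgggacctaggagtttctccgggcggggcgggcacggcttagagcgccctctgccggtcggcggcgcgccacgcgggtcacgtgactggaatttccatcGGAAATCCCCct
Tnf: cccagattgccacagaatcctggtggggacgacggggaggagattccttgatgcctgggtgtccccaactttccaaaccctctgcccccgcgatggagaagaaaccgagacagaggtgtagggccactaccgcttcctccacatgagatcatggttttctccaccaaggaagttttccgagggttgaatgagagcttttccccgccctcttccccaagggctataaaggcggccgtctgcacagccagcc
Among the windows not printed, the first of the 3 windows of Nfkb2 held 2 matches, 39 and 11 bases before the start site, and the third held 1, 225 bases before it. The Tnip1 window held 1, 57 bases before the start site.

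In the same assembly the 10 genes lie on 10 chromosomes. Tnf is ENSMUSG00000024401 at chr17:35199367-35202007. Nfkb1 is ENSMUSG00000028163 at chr3:135584655-135691969. Nfkb2 is ENSMUSG00000025225 at chr19:46300994-46312400. Relb is ENSMUSG00000002983 at chr7:19606217-19629438. Nfkbia is ENSMUSG00000021025 at chr12:55489409-55492647. Nfkbiz is ENSMUSG00000035356 at chr16:55811375-55838954. Tnfaip3 is ENSMUSG00000019850 at chr10:19000910-19015410. Tnip1 is ENSMUSG00000020400 at chr11:54910787-54962956. Tnip3 is ENSMUSG00000044162 at chr6:65590398-65634040. Cd83 is ENSMUSG00000015396 at chr13:43785112-43803133. UMIs (unique molecular identifiers, each counting 1 captured transcript) over all kept cells numbered from 15810 for Tnip1 to 797580 for Nfkbia. At least 1 UMI was found in 90.5% of all cells for Nfkbia and in 8.73% for Tnip3, and the other 8 members lay between 13% for Tnf and 70.3% for Nfkb1.

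The libraries held 2468 to 9115 barcodes and 17726739 to 75470722 gene UMIs each, and 45488 cells remained after filters. Libraries shared at most 0.377% of the barcodes of the smaller one. Cells were clustered without the members and without the other genes of the NF-kappaB lists, and clusters were named from lists of markers, so a class name ends in "-like". The macrophage or monocyte-like class was made of different clusters in the arms. Cluster 7, led by Cd209f, C1qc and Folr2, gave 2154 of its 2472 control cells, and cluster 5, led by the monocyte and inflammatory macrophage genes Chil3, Arg1 and Ly6c2, gave 2164 of its 2341 expanded cells. Dendritic-like cells numbered 2918 in control and 973 in expanded libraries, and neutrophil-like cells 107 and 1212. Levels are given as CPM, the usual scaling of a gene's UMIs to the gene UMIs of all cells of a class in a library. Words such as lower, less and fell refer to this share of the UMIs and not to transcripts per cell. The UMIs per cell also differed between the arms in several classes.

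The members differed in which cells held them, in both arms. Tnip3 and Cd83 were highest in dendritic-like cells. Tnip3 lay 2.59 ± 0.67 log2 units (SD over 10 libraries) above the next class, macrophage or monocyte-like cells, and Cd83 1.17 ± 0.81 units above it, each in 10 of 10 libraries (exact two-sided sign-flip permutation p = 0.00195, the smallest that 10 libraries allow, adjusted over the 10 members p = 0.00977). For the other 8 members the order of the leading classes did not pass that test. For every member the leading and next class were picked by the same values that were tested. The p-values do not allow for that choice. Nfkbia was highest in neutrophil-like cells, 1.10 log2 units above endothelial-like cells in 7 of 7 libraries with enough cells of both classes (exact sign-flip permutation, adjusted p = 0.052). Nfkbiz was also highest in neutrophil-like cells, 1.21 units above mast-like cells in 5 of 5 libraries, where the exact permutation test allows no p below 0.0625 (adjusted p = 0.16). Tnf was highest in neutrophil-like cells and next in macrophage or monocyte-like cells, with 5 of 7 libraries in that order. Neighbours in the order lay 0.01 to 0.16 log2 units apart for Nfkb1, Nfkb2, Relb, Tnfaip3 and Tnip1, whose highest levels were in NK or innate lymphoid-like, neutrophil-like, dendritic-like and T cell-like classes. In fibroblast-like cells, which served as the background for free RNA, Tnf was at most 1.13 CPM in control libraries and between 0.654 and 9.94 CPM in expanded ones.

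**Figure D1:**
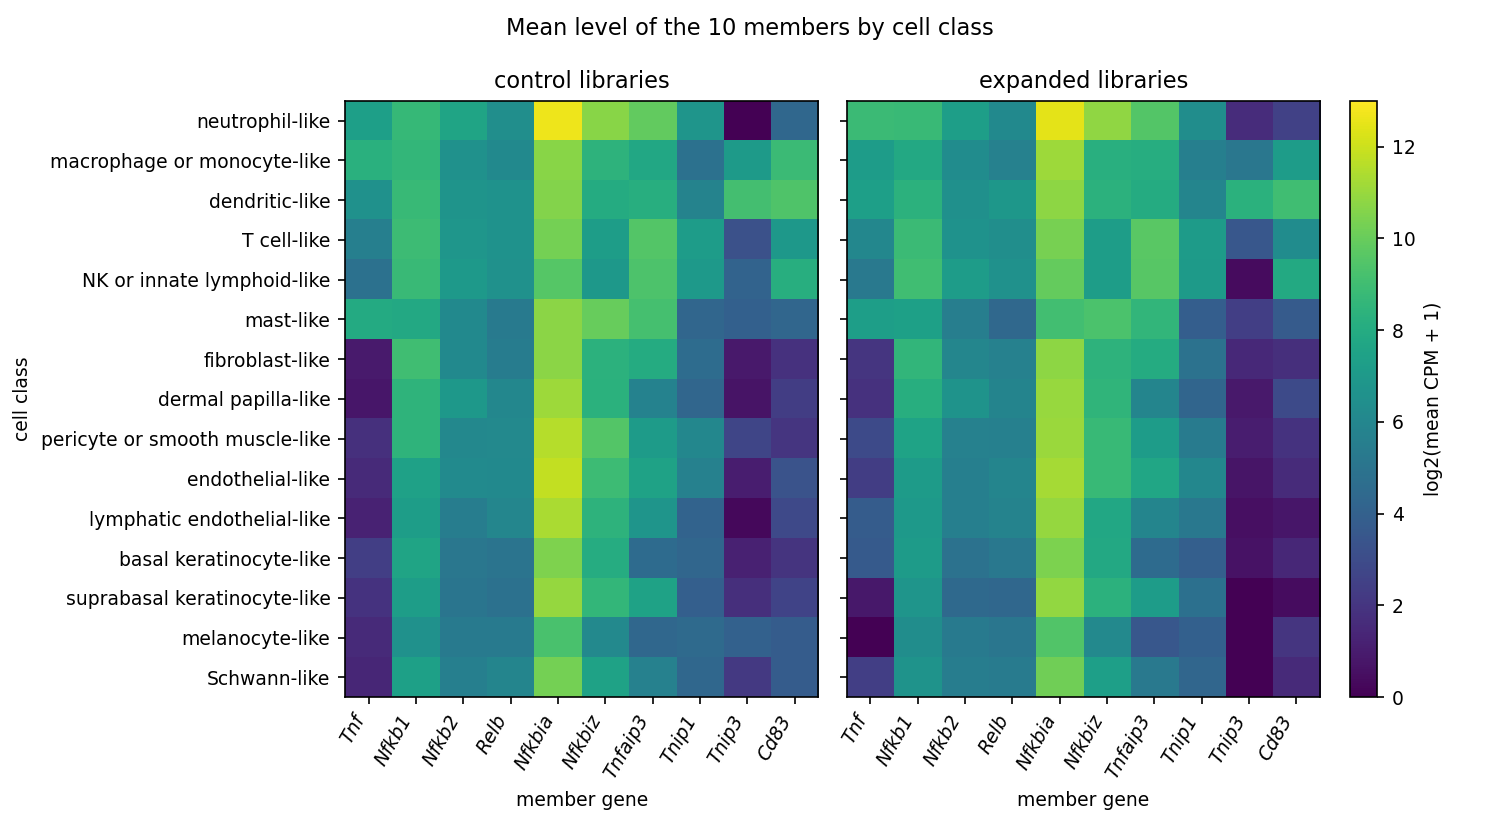
Mean level of each member (columns) in 15 cell classes (rows), as log2 of the mean CPM plus 1, with control libraries in the left panel and expanded libraries in the right. Colours are best read down a column: Tnip3 and Cd83 peak in the dendritic-like row and Nfkbia and Nfkbiz in the neutrophil-like row, and Tnf is bright only in myeloid and mast-like rows, with T cell-like and NK-like rows between.

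Levels in expanded and control libraries were compared class by class with edgeR (quasi-likelihood), in a model that held the day, and p-values were adjusted by Benjamini-Hochberg over all genes tested in the class. Of 93 tests of a member in 12 classes, 16 gave a lower level with expansion at an adjusted p under 0.05 and 0 gave a higher one, while 3 were higher at an unadjusted p under 0.05. DESeq2 called 17 lower and 0 higher. Other alternatives added calls in both directions. Tnip1 was higher in macrophage or monocyte-like cells with day and round as a block, with cells thinned to 2000 UMIs or with no filter. It was higher in lymphatic endothelial-like cells with no filter. Tnf was higher in dendritic-like cells with no filter or under scaling by library totals. Each of these also passed in a fit without 1 library. The sign was negative in 65 tests and positive in 28. The 16 calls lay in 6 classes and touched 9 of the 10 members. Tnip1, tested in 10 classes, was called in none. Nfkb1 fell in 4 of 12 classes, Nfkbia, Nfkbiz and Nfkb2 in 2 of 12, Tnip3 in 2 of 3, and Tnf in 1 of 4, Relb in 1 of 12, Tnfaip3 in 1 of 11 and Cd83 in 1 of 5. The share of all genes called lower ranged from 0.114% in T cell-like to 17.9% in fibroblast-like cells, so each class is read beside its own share. The lower and higher shares were 14.6% and 12.5% in macrophage or monocyte-like and 10.0% and 7.93% in dendritic-like cells. They were 17.9% and 18.1% in fibroblast-like and 10.6% and 8.65% in pericyte or smooth muscle-like cells. In endothelial-like and lymphatic endothelial-like cells they were 6.82% and 5.35%, and 5.87% and 5.67%. The median log2 fold change of all genes lay between -0.01 and 0.02 in the 12 classes.

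**Figure D2:**
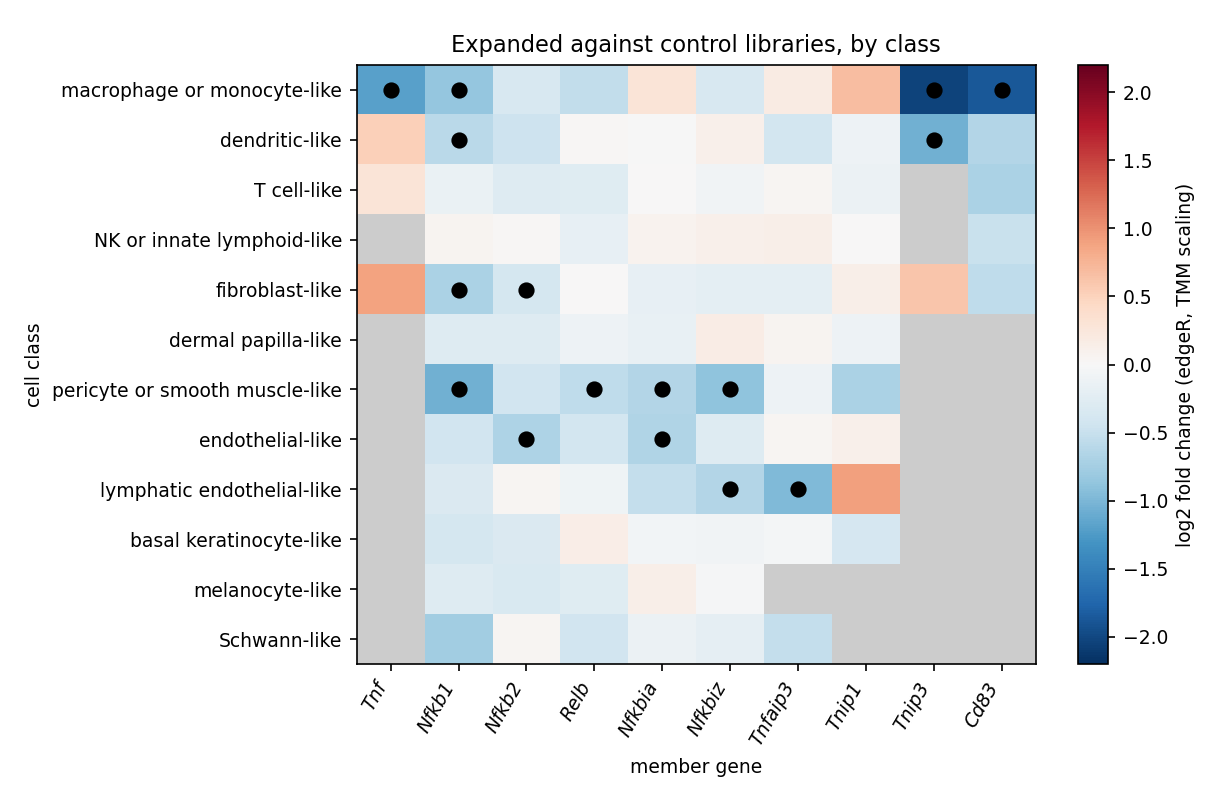
Log2 fold change of each member (columns) in expanded against control libraries, in the 12 classes tested (rows), with dots where the adjusted p is under 0.05 and grey where a member was too low to test. The 16 dots are all on blue (lower) cells, 4 of them in the macrophage or monocyte-like row and 4 in the pericyte or smooth muscle-like row.

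Tnf, Nfkb1, Tnip3 and Cd83 made up a smaller share of the UMIs of macrophage or monocyte-like cells in expanded skin. These 4 of 10 members fell, beside 14.6% of all 9690 genes tested that were called lower and 27.1% called either way. The median log2 fold change was -0.45 over the 10 members and 0.01 over all genes. Tnf, the cytokine, stood at 327, 378, 270.3, 196 and 345 CPM in control libraries and 183, 147, 135, 87.4 and 169.8 CPM in expanded libraries. Every expanded library lay below every control library, with means of 303 ± 71.6 CPM in control and 144 ± 37.0 CPM in expanded libraries (mean ± SD, n = 5 and 5). The fitted level was 2.29-fold lower (log2 fold change -1.19, SE 0.18, adjusted p = 0.0017).

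Among the transcription factor subunits, Nfkb1 was measured at 490.1, 509, 368, 276 and 326 CPM in control libraries and 186, 279, 264, 189.5 and 234 CPM in expanded libraries. The groups overlapped by 1 library each, since the lowest control library lay just under the highest expanded one, and the expanded library was the lower one in 5 of 5 pairs of the same day and round. Nfkb1 fell 1.80-fold (log2 fold change -0.85, SE 0.21, adjusted p = 0.013). Relb, the partner of processed p100, was lower in 5 of 5 pairs too, at 67.5, 85.5, 69.2, 59.3 and 69.1 CPM in control libraries and 33.8, 60.9, 55.7, 43.0 and 63.1 CPM in expanded libraries. Its change did not pass (log2 fold change -0.55, SE 0.20, adjusted p = 0.069), and with day and round as a block it did (adjusted p = 0.014). Nfkb2 overlapped between the groups (log2 fold change -0.36, adjusted p = 0.15).

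The inhibitors went in no common direction. Nfkbia had 1303, 1647, 1318, 2183 and 1859 CPM in control libraries and 1779, 2627, 2194, 1780.3 and 2442 CPM in expanded libraries, higher in the expanded library in 4 of 5 pairs and with overlapping groups (log2 fold change 0.28, SE 0.18, adjusted p = 0.28). Nfkbiz (-0.34, adjusted p = 0.15) and Tnfaip3 (0.19, adjusted p = 0.46) also overlapped and did not pass. The genes of the 2 A20-binding proteins had opposite signs. Tnip1 stood at 17.2, 33.1, 20.2, 43.3 and 27.3 CPM in control libraries and 22.5, 65.6, 60.1, 46.3 and 45.9 CPM in expanded libraries, higher in the expanded library of 5 of 5 pairs. It missed the threshold (log2 fold change 0.69, SE 0.31, adjusted p = 0.12) and passed it with day and round as a block (adjusted p = 0.029), with no filter on low counts (0.0027), with each cell thinned to 2000 UMIs (0.034) and without expanded day 1 round 1 (0.030). Tnip3 stood at 102, 145, 139, 90.7 and 202 CPM in control libraries and 33.2, 37.5, 38.2, 25.5 and 41.7 CPM in expanded libraries. The highest expanded library had less than any control library, and Tnip3 fell 4.09-fold (log2 fold change -2.03, SE 0.21, adjusted p = 0.00076).

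Cd83, the surface marker of activation, was found at 462, 587, 445, 350.0 and 514 CPM in control libraries and 188, 133, 121, 98.2 and 176 CPM in expanded libraries. The groups did not overlap, with means of 471 ± 87.5 CPM in control and 143 ± 38.0 CPM in expanded libraries (mean ± SD, n = 5 and 5), and Cd83 fell 3.63-fold (log2 fold change -1.86, SE 0.17, adjusted p = 0.00076). The calls for Tnf, Nfkb1, Tnip3 and Cd83 held without any 1 of the 10 libraries, with adjusted p of at most 0.041 for Nfkb1 and at most 0.011 for the other 3.

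**Figure D3:**
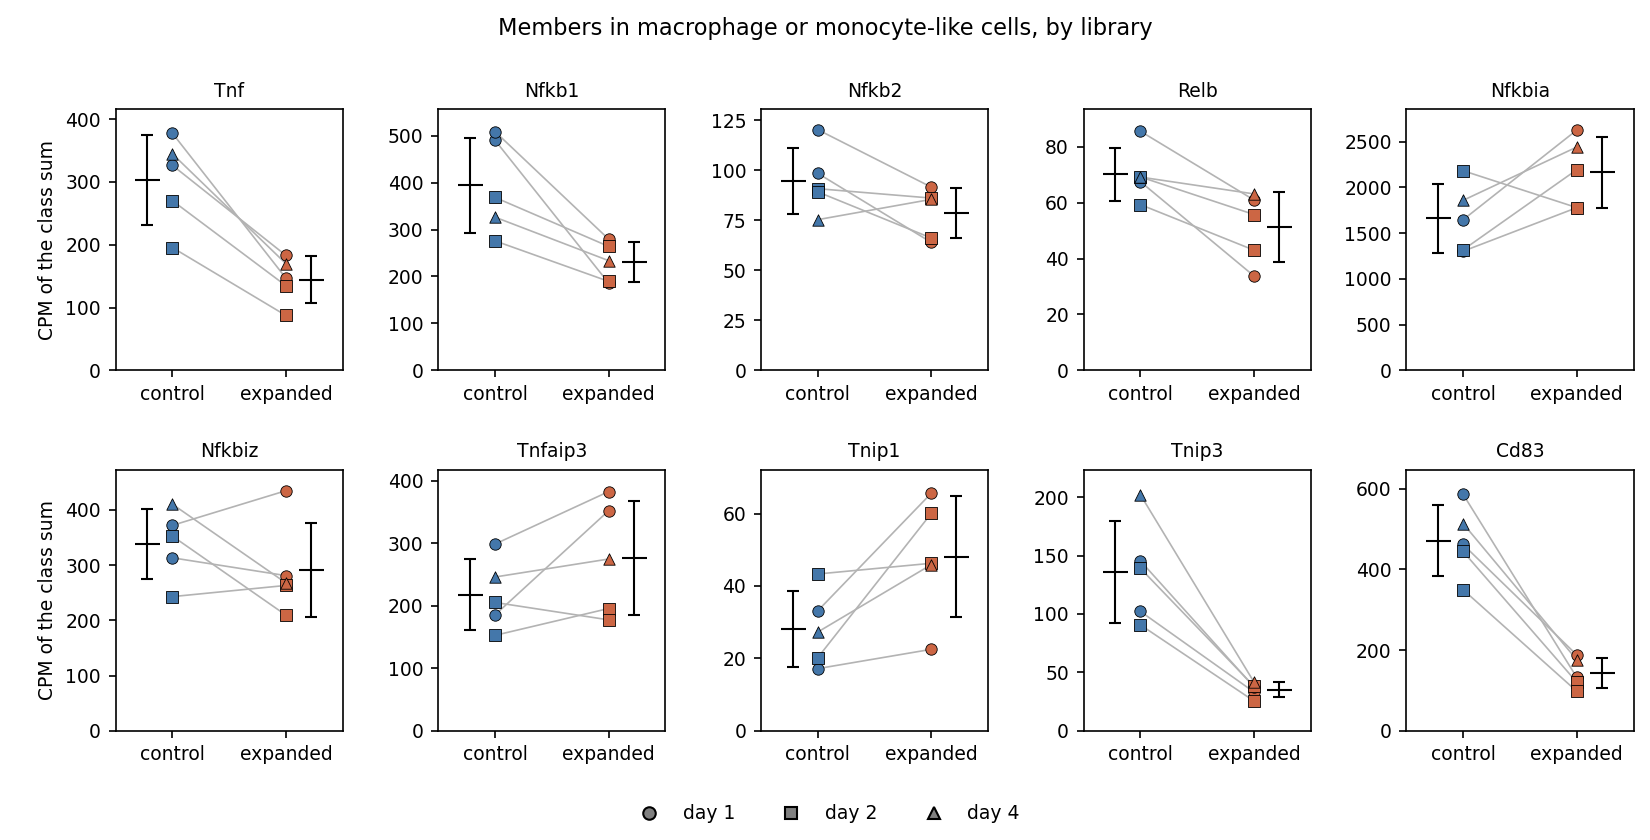
CPM of each member in macrophage or monocyte-like cells of the 5 control (blue) and 5 expanded (orange) libraries, with the symbol giving the day, grey lines joining libraries of the same day and round, and bars giving mean and SD. Expanded libraries lie wholly below control libraries for Tnf, Tnip3 and Cd83, while Nfkbia, Nfkbiz, Nfkb2, Relb, Tnfaip3 and Tnip1 overlap.

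Since the class was made of cluster 7 in control and of cluster 5 in expanded skin, the members were also compared within each cluster. Cluster 7 was tested on 5 control and 3 expanded libraries after the data were seen, because the day 2 expanded libraries had only 6 and 11 such cells. Cd83 in cluster 7 was 468, 597, 462, 431 and 534 CPM in control libraries and 206, 202 and 283 CPM in the expanded libraries of day 1 and day 4, and the groups did not overlap. Cd83 (log2 fold change -1.38, SE 0.24, adjusted p = 0.014), Tnip3 (-1.69, adjusted p = 0.014) and Nfkb1 (-1.21, adjusted p = 0.033) fell in cluster 7, which is 3 of 10 members beside 3.45% of all genes called lower, and the medians were -0.72 and 0.00. None of the 3 calls held without either expanded library of day 1: the adjusted p was then 0.078 or 0.071 for Cd83, 0.060 or 0.062 for Tnip3 and 0.13 or 0.099 for Nfkb1, which also missed without either control library of day 1 (0.084 and 0.098). Tnf in cluster 7 had the same sign and did not pass (log2 fold change -0.76, SE 0.23, adjusted p = 0.068), and passed with the block (0.031) or without either control library of day 2 (0.041 and 0.043).

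In cluster 5 the log2 fold change was negative for 10 of 10 members, with a median of -0.50 beside 0.05 over all genes. The 4 control libraries in that fit held 24, 22, 212 and 52 cells of the cluster. Only Cd83 passed there (log2 fold change -1.29, SE 0.18, adjusted p = 0.022), in a cluster where 0.0988% of all genes were called lower. Its levels were 313, 411, 264 and 343 CPM in the control libraries with at least 20 cells, which leaves out day 2 round 1 with 8 cells, and 171, 123, 120.5, 97.3 and 170.2 CPM in expanded libraries, and the groups did not overlap. The call was lost without any 1 of the 4 control libraries (adjusted p 0.061, 0.063, 0.14 and 0.063, in order) or the expanded library of day 4 (0.10). Tnip3 in cluster 5 had a log2 fold change of -1.72 (adjusted p = 0.12), which passed with the block (0.014), with DESeq2 (0.0023), with no filter (2.5e-07) and without control day 2 round 2 (0.047). Tnf was -0.50 (adjusted p = 0.48), where the whole class had -1.19.

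Other measures moved with the macrophage result. The median cell had 6099 UMIs in control and 11998 in expanded libraries. Of 19 genes known to be induced by enzymatic digestion, 13 were called lower in expanded macrophage or monocyte-like cells, and their summed level ran from 18084 to 20368 CPM in control and 9228 to 17954 CPM in expanded libraries. Within cluster 5 the sum ran from 9499 to 14536 and 9214 to 13967 CPM with 0 of 19 called lower, and within cluster 7 from 18722 to 23386 and 19514 to 26656 CPM with 2 called lower and 2 higher. Neutrophil transcripts summed to 50.1 to 125 CPM in control and 299.7 to 1896 CPM in expanded macrophage or monocyte-like cells, and fibroblast transcripts to 327 to 4487 and 31.3 to 496 CPM. Within cluster 5 fibroblast transcripts summed to 250 to 19881 CPM in control and 26.3 to 444 CPM in expanded libraries. Within cluster 7 they summed to 400 to 3846 and 108 to 549 CPM. Their part in the results of the members was not tested.

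Dendritic-like cells, the class richest in Tnip3 and Cd83, had lower levels of Tnip3 and Nfkb1 with expansion while their Tnf values were higher. Tnip3 and Nfkb1 were the 2 of 10 members called lower, beside 10.0% of all 9602 genes. The median change was -0.26 over the members and 0.01 over all genes. Tnip3 stood at 534, 588, 649.7, 428 and 558 CPM in control libraries and 258, 324, 347, 361 and 281 CPM in expanded libraries. The groups did not overlap, and Tnip3 fell 2.08-fold (log2 fold change -1.06, SE 0.17, adjusted p = 0.0033), with an adjusted p of at most 0.016 when any 1 library was left out. Nfkb1 stood at 474, 493, 385, 395 and 379 CPM in control libraries and 225, 367, 360.0, 316 and 373 CPM in expanded libraries, again with no overlap.

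Nfkb1 fell 1.51-fold (log2 fold change -0.60, SE 0.17, adjusted p = 0.034), a call that held in 3 of 10 fits without 1 library. It was kept without control day 2 round 2, expanded day 1 round 1 or expanded day 2 round 1, and without each of the other 7 the adjusted p lay between 0.051 and 0.085. It was also lost when counts were scaled by library totals (log2 fold change -0.37, adjusted p = 0.11) and after thinning (adjusted p = 0.090). Tnf was 74.5, 109, 89.2, 105 and 87.8 CPM in control libraries and 150.1, 123, 120.4, 237 and 159 CPM in expanded libraries. All expanded libraries lay above all control libraries, though the test over all genes did not pass (log2 fold change 0.53, SE 0.19, adjusted p = 0.078). It passed under scaling by library totals (log2 fold change 0.75, adjusted p = 0.018), which shifts the median of all genes to 0.23, with no filter (0.012) and without expanded day 2 round 1 (0.049), and not after thinning (0.34). Cd83 was 739, 863, 797, 497 and 519 CPM in control libraries and 398, 749.8, 417, 465 and 527 CPM in expanded libraries, and the groups overlapped. It missed the threshold (log2 fold change -0.65, SE 0.21, adjusted p = 0.057) and passed with the block (0.030), with DESeq2 (0.023), with no filter (0.00043) and without control day 2 round 2 (0.027) or expanded day 1 round 2 (0.048). Nfkb2 missed it too (log2 fold change -0.46, adjusted p = 0.14) and passed with the block (0.037) and with no filter (0.046).

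Most dendritic-like cells belonged to cluster 1, with 2429 control and 636 expanded cells, led by Ear2, Mgl2, Cd209e and Ccl17. Tnip3, which was not used to form it, was also among its leading genes. Within this cluster 5 of 10 members fell, beside 9.2% of all genes, and 1, Tnf, rose, beside 8.52%, with a median of -0.42 over the members and 0.01 over all genes. Tnf in cluster 1 was 65.1, 104, 82.1, 87.4 and 91.7 CPM in control libraries and 154, 134, 143, 183 and 174 CPM in expanded libraries. The groups did not overlap, and Tnf rose 1.58-fold (log2 fold change 0.66, SE 0.16, adjusted p = 0.020). The call was lost without control day 1 round 1 (adjusted p = 0.052), control day 4 (0.063), expanded day 2 round 2 (0.053) or expanded day 4 (0.060), and after thinning (0.34).

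Cd83 in cluster 1 was 732, 845, 847, 457 and 516 CPM in control libraries and 392, 505, 329, 341 and 372 CPM in expanded libraries. The expanded library of day 1 round 2 lay above the lowest control library. Cd83 fell 2.04-fold (log2 fold change -1.03, SE 0.20, adjusted p = 0.0082), Tnip3 fell 1.88-fold (log2 fold change -0.91, SE 0.19, adjusted p = 0.0099) and Nfkb1 fell 1.61-fold (log2 fold change -0.68, SE 0.14, adjusted p = 0.012), and these 3 calls held without any 1 library. The non-canonical pair also fell, Nfkb2 with -0.67 (adjusted p = 0.037) and Relb with -0.65 (adjusted p = 0.034). Both calls were lost under scaling by library totals (adjusted p = 0.087 and 0.094) and after thinning (0.19 and 0.22). They were also lost in 8 and 7 of the 10 fits without 1 library, with adjusted p up to 0.091 and 0.089. Nfkb2 was kept only without control day 2 round 2 or expanded day 2 round 1, and Relb without those or expanded day 1 round 2. Nfkbiz stood at 230.4, 241, 285, 272 and 309.8 CPM in control libraries and 466, 402, 419, 369.8 and 337 CPM in expanded libraries, with every expanded library above every control library. It missed the threshold (log2 fold change 0.37, adjusted p = 0.089) and passed under scaling by library totals (0.016).

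A second dendritic-like cluster, cluster 20, was led by Ccl22, Cd207, Ccr7 and Xcr1. It gave 393 of 2918 control and 325 of 973 expanded dendritic-like cells, whose part in the class results was not tested. Its Relb levels spread widely in expanded libraries, at 154, 138, 138, 138 and 144 CPM in control libraries and 60.6, 265, 251, 153 and 429 CPM in expanded libraries, and the groups overlapped (log2 fold change 0.37, SE 0.35, adjusted p = 0.55). A part of these cells with migratory dendritic markers held 61 control and 131 expanded cells. Only 1 control and 3 expanded libraries had 20 of them, with Relb at 299.8 CPM in the former and a mean of 458 ± 81.1 CPM in the latter (SD, n = 3), so no test was made. Tnfaip3 was the member called in cluster 20 (log2 fold change -0.97, SE 0.25, adjusted p = 0.045), beside 3.73% of all genes called lower. It was kept without control day 2 round 2 or expanded day 1 round 1, and each of the other 8 libraries left out raised the adjusted p to between 0.056 and 0.12. It was also lost after thinning (0.18) and under scaling by library totals (0.068).

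In dendritic-like cells the median UMI count was 9661.5 in control and 12916 in expanded libraries, and 6 of the 19 digestion-induced genes were called lower, with sums of 13024 to 16049 and 9671 to 18386 CPM. In cluster 1, 2 of them were called lower, with sums of 12333 to 16350.3 and 9986 to 19592 CPM. Neutrophil transcripts summed to 5.19 to 29.4 and 16.9 to 54.5 CPM and fibroblast transcripts to 277 to 4367 and 33.8 to 263 CPM in dendritic-like cells. Their part in these results was not tested.

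The expansion difference itself was compared between dendritic-like and macrophage or monocyte-like cells in 1 fit with the library as a block, added after the data were seen. It differed for 6 of 10 members, beside 17.5% of all 10553 genes. The change in dendritic-like cells was more positive by 1.69 log2 units for Tnf (SE 0.26, adjusted p = 0.0018), by 1.21 for Cd83 (adjusted p = 0.0036) and by 0.99 for Tnip3 (adjusted p = 0.0027). It was also more positive for Relb (0.56, adjusted p = 0.034) and Nfkbiz (0.47, adjusted p = 0.045), and more negative for Tnip1 (-0.77, adjusted p = 0.016). Tnip3 fell in both classes, by the larger factor in macrophage or monocyte-like cells, whereas Tnf fell in these cells and had higher values in dendritic-like cells. The median difference was 0.36 over the members and 0.01 over all genes. Both classes differed between the arms in their clusters, and the part of that in these differences was not tested.

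The differences for Tnf, Cd83 and Tnip3 held without any 1 library, with adjusted p of at most 0.020. That for Tnip1 was lost without either library of day 4 (adjusted p = 0.063 for each). That for Relb was lost without control or expanded day 4 (0.15 and 0.14) and without control day 1 round 1 (0.066), control day 1 round 2 (0.083), expanded day 1 round 2 (0.092) or expanded day 2 round 1 (0.094). That for Nfkbiz was kept only without control day 2 round 1 or expanded day 1 round 1, and otherwise reached up to 0.15. Between the single clusters 1 and 5, the differences for Tnf (1.14, SE 0.23, adjusted p = 0.031) and Nfkbiz (0.90, adjusted p = 0.038) passed, beside 0.715% of all genes. The one for Tnf was lost in 5 of 9 fits without 1 library, namely each control library but day 2 round 1 and the expanded library of day 4, and the one for Nfkbiz in 6 of 9, namely both libraries of day 4 and all 4 of day 1, with adjusted p up to 0.13 for either.

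**Figure D4:**
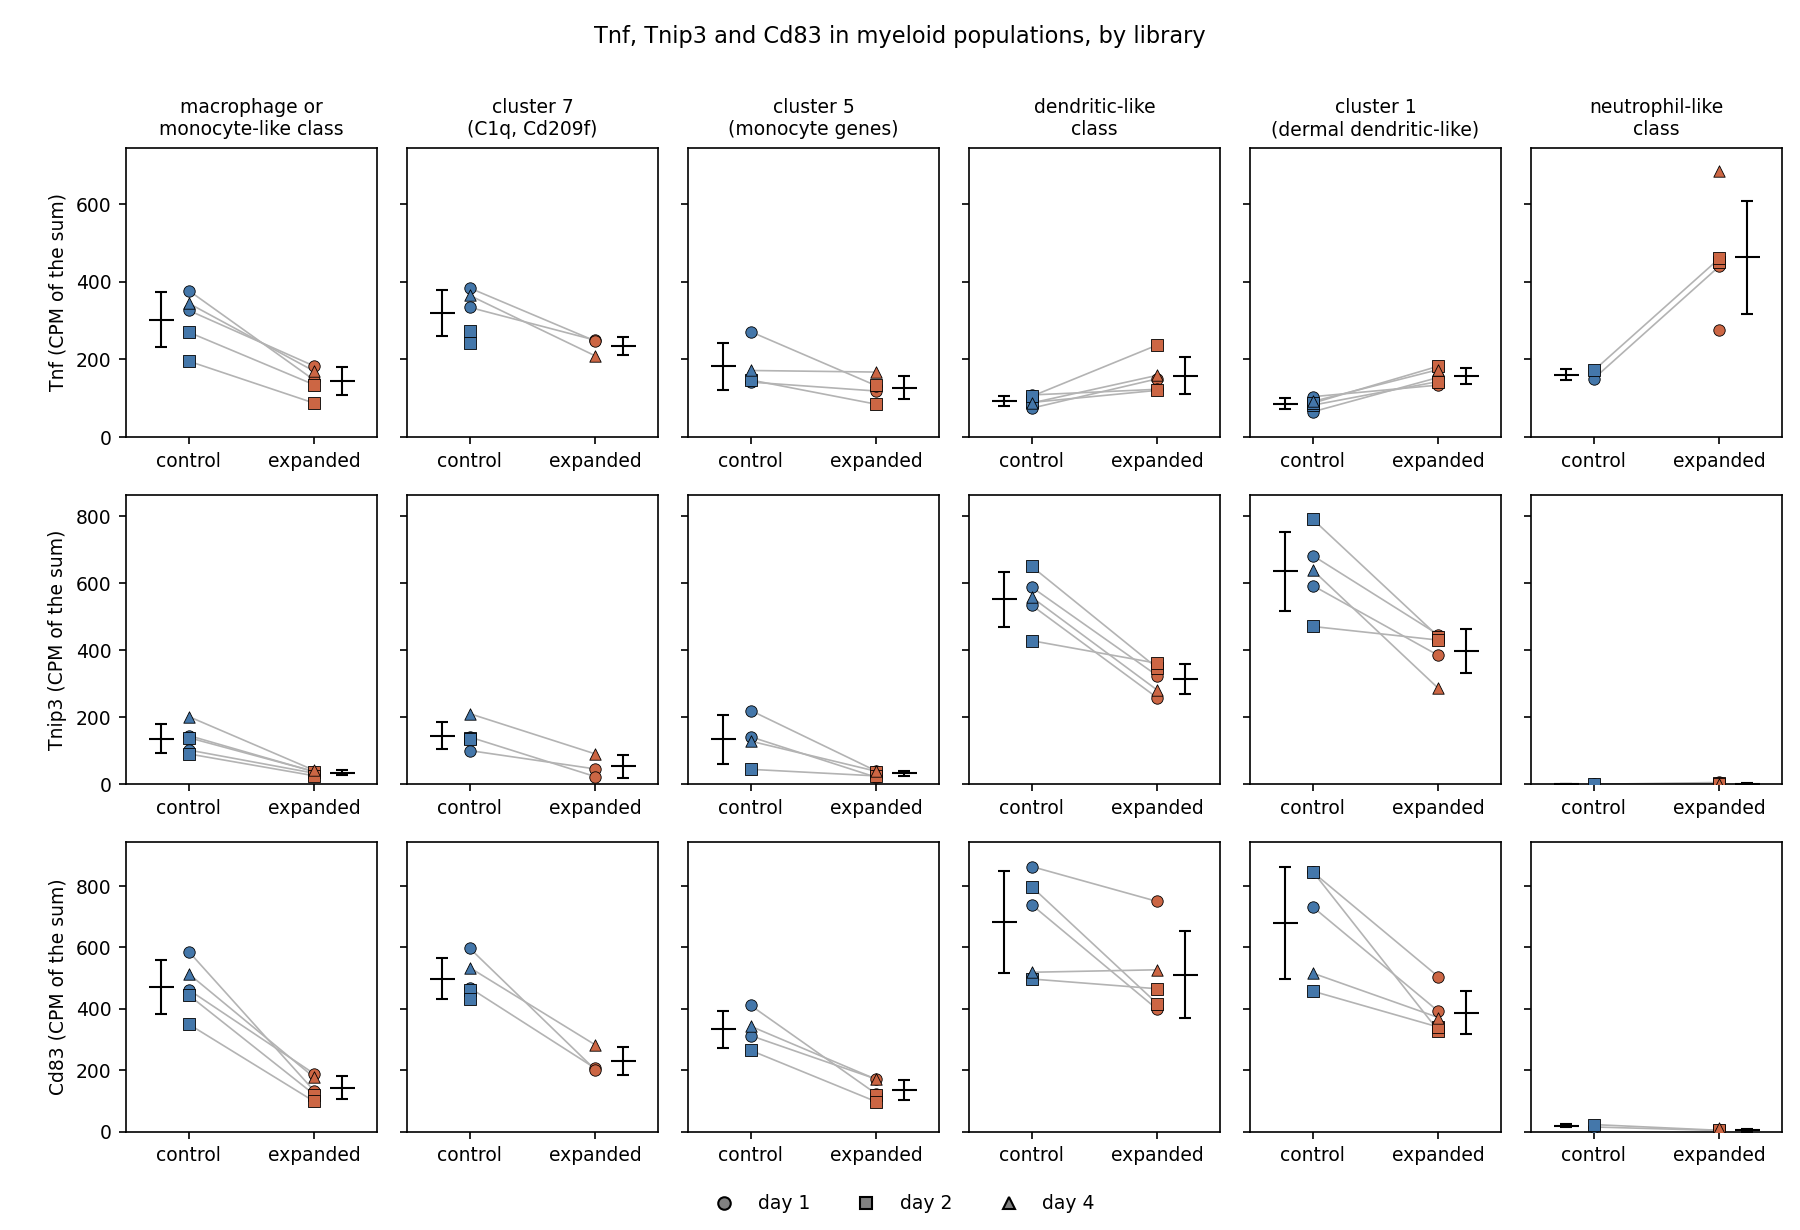
CPM of Tnf, Tnip3 and Cd83 (rows) per library in 6 myeloid populations (columns), with 1 scale per row, symbols for the day, grey lines joining libraries of the same day and round, and bars giving mean and SD over libraries with enough cells. Tnf is lower in expanded macrophage or monocyte-like cells and higher in expanded cluster 1 cells, and Tnip3 and Cd83 lie lower in the expanded libraries of all but the neutrophil-like population, with overlap for Cd83 in dendritic-like and cluster 1 cells.

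Neutrophil-like cells were few in control skin, with 7, 29, 9, 43 and 19 cells, so their values there are coarse. Summed over all libraries, Tnf was 146 CPM in control cells (32 UMIs, exact Poisson 95% interval 99.9 to 206, which covers counting error only) and 505 CPM in expanded cells (483 to 528). By library, expanded Tnf was 277, 440.3, 451, 461 and 687 CPM, and the 2 control libraries with at least 20 such cells had 151 and 172 CPM. Each expanded library was above both. With the limit lowered to 5 cells the test gave a log2 fold change of 1.89 (SE 0.43, adjusted p = 0.13), in a fit with 972 genes of which 0.206% were called. Without expanded day 1 round 1, the lowest expanded library, it passed (log2 fold change 2.04, adjusted p = 0.020), and without any other library it did not. Nfkbia, at 5353, 7211, 6779.8, 3844 and 5198 CPM in expanded libraries, was at 7169 and 5755 CPM in those 2 control libraries, inside the expanded range.

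The cells that held the Tnf UMIs of a library differed between the arms. Macrophage or monocyte-like cells held 53.8% ± 9.60 of them in control and 36.8% ± 13.7 in expanded libraries (SD, n = 5), dendritic-like cells 32.1% ± 12.5 and 26.4% ± 10.5, neutrophil-like cells 0.349% ± 0.367 and 18.4% ± 9.48, and T cell-like cells 3.68% ± 2.02 and 8.22% ± 7.84. Over all cells of a library summed, Tnf was 36.1 ± 2.49 CPM in control and 54.0 ± 25.9 CPM in expanded libraries, a difference that did not pass (exact two-sided permutation p = 0.17, adjusted over the 10 members p = 0.28, n = 5 each). In such sums, fewer cells of a type and less RNA per cell cannot be told apart. Nfkb1 fell over all cells from 440.1 ± 92.3 to 261 ± 42.4 CPM, and Cd83 from 119.7 ± 18.7 to 68.5 ± 21.7 CPM (each exact permutation p = 0.00794, the smallest possible, adjusted p = 0.0397). Tnip3 was 77.1 ± 21.2 and 32.8 ± 13.8 CPM (exact permutation, adjusted p = 0.079). Fibroblast-like cells held 55.8% ± 11.6 of the Nfkb1 UMIs in control and 25.2% ± 11.8 in expanded libraries, and dendritic-like cells 65.9% ± 6.54 and 60.1% ± 11.3 of those of Cd83.

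**Figure D5:**
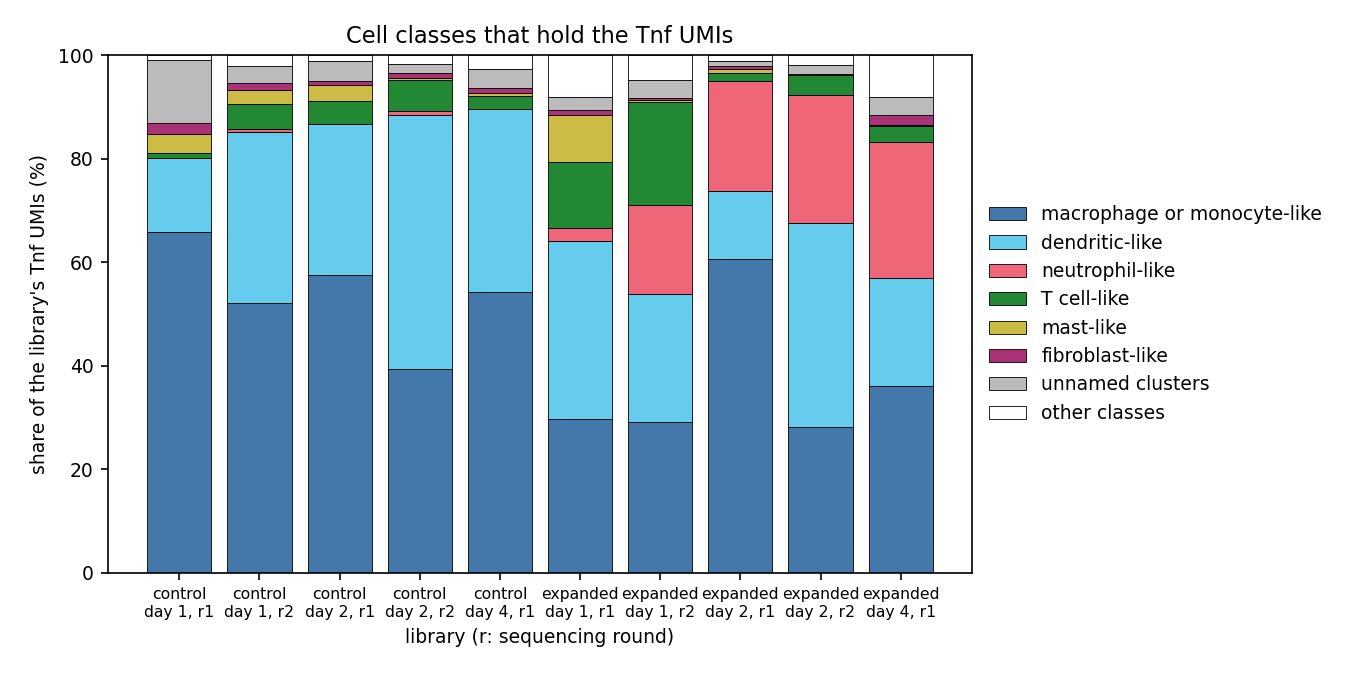
Share of the Tnf UMIs of each library (y axis, percent) held by each cell class, with 5 control libraries on the left and 5 expanded ones on the right. Neutrophil-like cells hold a visible share in the expanded libraries only, 18.4% on average, and macrophage or monocyte-like cells hold 53.8% on average in control and 36.8% in expanded libraries.

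Stromal and vascular cells held little Tnf, Tnip3 or Cd83. These genes were too low to test in pericyte or smooth muscle-like, endothelial-like and lymphatic endothelial-like cells. Calls there were open only to the other 7 members, which are subunits and inhibitors. In fibroblast-like cells all 10 members were tested, and those called were subunits. In pericyte or smooth muscle-like cells Nfkb1, Relb, Nfkbia and Nfkbiz fell, 4 of 7 members tested beside 10.6% of all 7294 genes, and the median was -0.64 over the members and 0.02 over all genes. Nfkbiz stood at 851, 859.6, 616, 604 and 793 CPM in control libraries and 466, 567, 355, 324 and 459 CPM in expanded libraries, with no overlap, and fell 1.84-fold (log2 fold change -0.88, SE 0.12, adjusted p = 0.0010). Nfkb1 stood at 397, 414, 378, 239 and 350.1 CPM in control libraries and 179, 168, 177, 253 and 138 CPM in expanded libraries. The expanded library of day 2 round 2 was the high one and lay above the control library of its own round, and Nfkb1 fell 2.09-fold (log2 fold change -1.06, SE 0.19, adjusted p = 0.0031). Nfkbia fell 1.56-fold (log2 fold change -0.64, SE 0.16, adjusted p = 0.015), a call lost without control or expanded day 4 (adjusted p = 0.059 and 0.062).

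Relb in pericyte or smooth muscle-like cells was 70.8, 73.4, 45.9, 73.8 and 75.3 CPM in control libraries and 38.5, 43.7, 45.6, 55.8 and 67.2 CPM in expanded libraries. The control library of day 2 round 1 was the low one among the controls, and the groups overlapped. Its call (log2 fold change -0.55, SE 0.18, adjusted p = 0.048) was kept only without that control library. Without any other library the adjusted p was 0.055 to 0.10, and with the block it was 0.058. The call was also lost with DESeq2 (0.098), with no filter (0.053), with a mitochondrial limit of 5% (0.061) and under scaling by library totals (0.090).

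Fibroblast-like cells, of which there were 10339 in control and 2079 in expanded libraries, had lower levels of Nfkb1 and Nfkb2 with expansion, 2 of 10 members beside 17.9% of all 12434 genes, close to that background. Nfkb1 stood at 634, 645, 432, 415 and 480.4 CPM in control libraries and 273, 428, 419, 333 and 403 CPM in expanded libraries. The 2 highest expanded libraries lay above the lowest control one, and Nfkb1 fell 1.61-fold (log2 fold change -0.69, SE 0.19, adjusted p = 0.016). Nfkb2 stood at 70.7, 76.0, 71.6, 71.1 and 62.1 CPM in control libraries and 58.9, 72.4, 62.0, 61.8 and 57.4 CPM in expanded libraries, with overlapping groups, and fell 1.31-fold (log2 fold change -0.39, SE 0.09, adjusted p = 0.0085). The call for Nfkb2 was lost under scaling by library totals (log2 fold change -0.17, adjusted p = 0.19), which moves the median of all genes from 0.01 to 0.24, and after thinning (0.073). The median over the members was -0.19.

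The fibroblast-like class, too, was made of different clusters in the arms. Cluster 0 gave 4593 control and 151 expanded cells, cluster 13 gave 1056 and 29, and cluster 8 gave 1846 and 271. Cluster 4, led by Hmga2, Tnc and Cilp, gave 1705 and 935, cluster 19 gave 485 and 356, and cluster 26 gave 266 and 289. Within cluster 4 Nfkb1 and Tnfaip3 fell, 2 of 7 members beside 12.2% of all 10523 genes called lower. Nfkb1 in cluster 4 was 752, 686, 588, 504 and 537 CPM in control libraries and 301, 499, 462, 292 and 380.4 CPM in expanded libraries, without overlap (log2 fold change -0.69, SE 0.18, adjusted p = 0.018). Tnfaip3 overlapped (log2 fold change -0.63, SE 0.18, adjusted p = 0.022), and its call was lost without control day 1 round 1 (0.061) or either expanded library of day 2 (0.068 and 0.063) and after thinning (0.066). Nfkb2 did not pass in cluster 4 (log2 fold change -0.14, adjusted p = 0.40). In cluster 19 edgeR called 0 of 8 members, beside 14.0% of all genes called either way, with 2 at an unadjusted p under 0.05, and in cluster 26 0 of 6, beside 8.37% and with 0 at an unadjusted p under 0.05. Of all genes 2312 of 8118 in cluster 19 and 1172 of 4551 in cluster 26 had such a p.

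Endothelial-like cells had lower levels of Nfkbia and Nfkb2 in expanded skin, 2 of 7 members beside 6.82% of all 9466 genes, with a median of -0.40 over the members and 0.01 over all genes. Nfkbia stood at 3217, 3574, 3179, 3671 and 3983 CPM in control libraries and 1722, 2031, 2515, 2526 and 3549 CPM in expanded libraries. Only the expanded library of day 4 lay inside the control range, and Nfkbia fell 1.59-fold (log2 fold change -0.67, SE 0.13, adjusted p = 0.0078). Nfkb2 stood at 81.2, 61.7, 101, 63.3 and 62.8 CPM in control libraries and 49.7, 42.5, 55.0, 39.8 and 52.1 CPM in expanded libraries with no overlap and fell 1.61-fold (log2 fold change -0.68, SE 0.18, adjusted p = 0.027), a call lost without control day 1 round 1 (adjusted p = 0.075), expanded day 1 round 2 (0.075) or expanded day 2 round 2 (0.060) and after thinning (0.54). Nfkb1 missed the threshold (log2 fold change -0.43, adjusted p = 0.069) and passed with the block (0.024), with DESeq2 (0.048) and without expanded day 2 round 1 (0.037). In lymphatic endothelial-like cells Tnfaip3 and Nfkbiz fell, 2 of 7 members beside 5.87% of all 6454 genes, with medians of -0.32 and -0.00. Tnfaip3 stood at 143, 129, 56.9, 86.3 and 124 CPM in control libraries and 36.7, 54.8, 43.9, 64.9 and 96.7 CPM in expanded libraries and fell 1.97-fold (log2 fold change -0.98, SE 0.22, adjusted p = 0.012), with both control libraries of day 2 inside the expanded range. Nfkbiz fell 1.57-fold (log2 fold change -0.65, SE 0.19, adjusted p = 0.038), a call kept only without control day 1 round 2, control day 2 round 2 or expanded day 2 round 1 and otherwise at an adjusted p of 0.063 to 0.15. It was also lost under scaling by library totals (0.054), with no filter (0.054) and with a mitochondrial limit of 5% (0.062), and neither call held after thinning (adjusted p = 0.15 for Tnfaip3 and 0.35 for Nfkbiz).

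Some of the digestion-induced genes were called lower in these classes too. Of the 19, the number called lower was 14 in endothelial-like, 17 in lymphatic endothelial-like, 9 in pericyte or smooth muscle-like and 7 in fibroblast-like cells, where 1 was higher. Their summed level ran from 22786 to 26834 CPM in control and 16669.8 to 22734 CPM in expanded endothelial-like cells, from 43289 to 58051 and 20979 to 41099 CPM in lymphatic endothelial-like cells, and from 30891 to 33689 and 16492 to 34123 CPM in pericyte or smooth muscle-like cells. In fibroblast-like cells the sum was not lower, at 19095 to 25294 CPM in control and 15342 to 27695 CPM in expanded libraries (means of 21240 and 21546). The list holds immediate early genes and heat shock genes, and its part in the lower member levels was not tested.

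No member was called in T cell-like, NK or innate lymphoid-like, basal keratinocyte-like, dermal papilla-like, Schwann-like or melanocyte-like cells, where 0.164%, 0.613%, 1.13%, 3.58%, 0.227% and 1.19% of all genes were called in either direction by edgeR. At an unadjusted edgeR p under 0.05 there were 1, 0, 2, 0, 1 and 0 members, of 9, 8, 7, 7, 6 and 5 tested in these classes, in the same order. Of all genes 857 of 7907, 502 of 4569, 2109 of 9787, 1236 of 7574, 689 of 6600 and 585 of 4810 had such a p. DESeq2 called 0 members in each class. The T cell-like member was Cd83, at 145, 116, 94.9, 103 and 142 CPM in control libraries and 76.1, 53.9, 107, 77.0 and 87.1 CPM in expanded libraries, with 1 expanded library inside the control range (log2 fold change -0.69, SE 0.19, adjusted p = 0.22). In T cell-like cells Tnfaip3, the gene of A20, was 733 ± 140.3 CPM in control and 802 ± 146 CPM in expanded libraries (mean ± SD, n = 5 and 5). The 95% interval of its log2 fold change ran from -0.21 to 0.30. Within the T cell-like class, clusters 15, 16 and 23 were also tested, and edgeR called 0 members in each. The shares of all genes called either way were 0.330%, 0.418% and 0.0272%. The median log2 fold change over the members was 0.12, -0.09 and 0.49. At an unadjusted edgeR p under 0.05 there were 1, 0 and 3 members, of 8, 9 and 9 tested. Of all genes 614 of 5754, 411 of 3826 and 215 of 3674 had such a p. In cluster 23, led by Ctla4 and Foxp3, 7 of 9 members had a positive sign.

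An epithelial cluster that stayed unnamed, cluster 9, led by Sdr16c6, Cidea and Ly6d, had 758 control and 1078 expanded cells. Nfkbia (log2 fold change -0.54, SE 0.11, adjusted p = 0.0079), Nfkb2 (log2 fold change -0.66, SE 0.15, adjusted p = 0.012), Relb (-0.58, adjusted p = 0.016) and Nfkbiz (-0.66, adjusted p = 0.043) fell in it, 4 of 7 members beside 8.99% of all genes, and all 7 had a negative sign. The call for Nfkbiz was lost in 9 of 10 fits without 1 library, all but the one without control day 2 round 2, with adjusted p up to 0.12. That for Relb was lost without control day 1 round 2 (adjusted p = 0.056), expanded day 1 round 2 (0.060) or expanded day 4 (0.051). After thinning the call for Nfkbia held (0.014), and those for Nfkb2 (0.56), Relb (0.61) and Nfkbiz (0.052) were lost. The call for Nfkbiz was also lost under scaling by library totals (0.060). Keratinocyte transcripts in cluster 9 summed to 9244 to 14068 CPM in control and 14709.7 to 19547 CPM in expanded libraries, fibroblast transcripts to 430.1 to 8651 and 18.9 to 203 CPM, and neutrophil transcripts to 0 to 27.8 and 11.9 to 1248 CPM. Of the 19 digestion-induced genes 5 were called lower there, with sums of 18241 to 38170.4 and 17340.0 to 24023 CPM, and the part of these transcripts in the member levels was not tested.

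Mast-like cells, which reached 20 cells in too few libraries for a test, had Nfkbia at 1545 CPM in 356 control cells summed and 498 CPM in 195 expanded cells summed, and Tnf at 297 and 191 CPM.

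Antibody hashtags, which mark the cells of 1 mouse before pooling, gave 21140 of the cells to a mouse, so that single days could be tested over mice. All mice of an arm in a round shared 1 reaction, so these p-values cover the spread between mice only, and on day 4 there was 1 round. Some classes kept few cells in this step: 99.1% of NK or innate lymphoid-like cells of hashed libraries had a mouse, but 41.1% of fibroblast-like, 40.5% of endothelial-like and 12.1% of basal keratinocyte-like cells. In macrophage or monocyte-like cells of day 2, 7 control and 7 expanded mice were compared. The lowest, median and highest Cd83 were 253, 402 and 473 CPM in control mice and 65.0, 107 and 144 CPM in expanded mice. The groups did not overlap (log2 fold change -1.95, adjusted p = 8.3e-07). In the day 2 libraries cluster 7 gave 250 and 267 control but 6 and 11 expanded cells of the class. Cluster 5 gave 8 and 212 control but 1059 and 278 expanded cells. In the day 4 libraries cluster 7 gave 516 control and 30 expanded cells, and cluster 5 gave 52 and 449. The mouse tests of days 2 and 4 used the whole class, and the part of its clusters in their results was not tested.

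Tnf had 80.9, 237 and 292 CPM in control and 40.6, 84.3 and 221 CPM in expanded mice of day 2, with overlap (log2 fold change -1.24, adjusted p = 0.0025). Tnip3 (-1.93, adjusted p = 0.0015), Nfkb1 (-0.67, adjusted p = 0.00060), Relb (-0.53, adjusted p = 0.026) and Nfkb2 (-0.39, adjusted p = 0.033) also fell, 6 of 10 members beside 16.2% of all genes. With round 2 alone 3 members fell, and under scaling by library totals Nfkb2 and Relb missed the threshold (adjusted p = 0.13 and 0.085). On day 4, with 4 mice per arm, 5 of 10 members fell, beside 14.9% of all genes. Cd83 ran from 452 to 592 CPM in control and 141 to 311 CPM in expanded mice (-1.46, adjusted p = 0.00038), and Tnip3 from 158 to 246 and 17.5 to 56.7 CPM (-2.42, adjusted p = 1.6e-05). Neither overlapped.

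Nfkbiz, which did not pass over libraries, fell in macrophage or monocyte-like cells of day 4 (355 to 523 CPM in control and 244 to 311 CPM in expanded mice, log2 fold change -0.77, adjusted p = 0.0024), as did Nfkb1 (-0.68, adjusted p = 0.0038). Tnf fell (-0.88, adjusted p = 0.047) and Tnip1 rose (0.60, adjusted p = 0.047), beside 13.2% of all genes called higher. These last 2 calls were lost in 6 and 5 of 8 fits without 1 mouse, with adjusted p up to 0.16 and 0.13.

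In dendritic-like cells of day 2, with 7 control and 4 expanded mice, Tnfaip3 (-0.77, adjusted p = 0.0036), Cd83 (-0.76, adjusted p = 0.011) and Tnip3 (-0.70, adjusted p = 0.033) fell, 3 of 10 members beside 11.4% of all genes. On day 4, with 4 mice per arm, Tnip3 fell (451 to 627 CPM in control and 229 to 324 CPM in expanded mice, log2 fold change -1.21, adjusted p = 0.0036), beside 5.2% of all genes called lower. Relb on day 4 ran from 70.3 to 100 CPM in control and 115 to 311 CPM in expanded mice without overlap. It missed the threshold (log2 fold change 0.96, adjusted p = 0.062) and passed under scaling by library totals (1.14, adjusted p = 0.032). In the day 4 libraries cluster 20 gave 95 of 902 control and 65 of 225 expanded dendritic-like cells. Over libraries Relb was called lower in cluster 1, a call lost in 7 of 10 fits without 1 library. Relb was not called in cluster 20. The part of the cluster shares in the Relb values of the class was not tested. In cluster 1, Nfkb1, Relb, Tnip3 and Cd83 fell and Tnip1 rose on day 2 (0.80, adjusted p = 0.030), beside 13.3% of all genes called lower and 11.6% higher. On day 4, Tnip3 (-1.34, adjusted p = 0.0014) and Nfkb2 (-0.67, adjusted p = 0.044) fell there, beside 4.98%.

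In the unnamed epithelial cluster 9 the mouse test was possible on days 1 and 4. On day 1, with 3 mice per arm, Nfkbia (-0.60), Nfkbiz (-1.01), Nfkb1 (-0.93), Nfkb2 (-0.96) and Relb (-1.10) fell, beside 11.6% of all genes called lower, and on day 4 no member was called, beside 2.05% of all genes called either way. No member was called over mice by edgeR in T cell-like cells of days 1, 2 and 4, where 0.0%, 0.858% and 0.427% of all genes were called and 0 members had an unadjusted p under 0.05. The same count of 0 was found in fibroblast-like cells of days 2 and 4, beside 24.8% and 26.9% of all genes, and in endothelial-like cells of day 4, beside 5.37%, with 1 member at an unadjusted p under 0.05 in each of these 3. Of all genes in these 3 fits, 3208 of 8665, 3638 of 9334 and 1323 of 5974 had such a p by edgeR. In T cell-like cells of days 1, 2 and 4 it was 240 of 5093, 624 of 4198 and 537 of 4453. The change between days was tested in dendritic-like, macrophage or monocyte-like, fibroblast-like and T cell-like cells and in cluster 1, and no member passed. Day 4 against day 2, the share of all genes called was 0.0482%, 0.0128%, 0.0432% and 0.0% in these classes, in that order, and 0.364% in cluster 1, and day 2 against day 1 it was 0.0173% in T cell-like cells. In dendritic-like cells Relb (0.95, unadjusted p = 0.0076, adjusted p = 0.41), Cd83 (0.67, adjusted p = 0.47) and Tnfaip3 (0.63, adjusted p = 0.48) had an unadjusted edgeR p under 0.05, each with a less negative or more positive change on day 4 than on day 2. In cluster 1 these were Tnip1 (-1.06, unadjusted p = 0.0075, adjusted p = 0.31) and Tnip3 (-0.68, adjusted p = 0.50), both more negative or less positive on day 4, and in the other 3 classes no member had such a p. An unadjusted edgeR p under 0.05 was found for 642 of all 8307 genes in dendritic-like cells and 692 of 7410 in cluster 1. The dendritic-like class differed in its clusters between the arms, and the part of that was not tested.

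The share of cells with a UMI of a member was compared at a fixed depth of 2000 UMIs per cell, since cells of expanded libraries were deeper. Thinning left out 236 control and 49 expanded macrophage or monocyte-like cells and 85 and 14 dendritic-like cells. With Tnf UMIs were 34.4% ± 6.96 of macrophage or monocyte-like cells in control and 19.1% ± 5.0 in expanded libraries (SD, n = 5), where the unthinned shares were 54.1% ± 9.40 and 51.0% ± 8.92. With Cd83 UMIs were 51.2% ± 7.68 and 19.7% ± 3.78 (unthinned 71.6% ± 7.68 and 49.2% ± 9.12). The Tnip3 shares in dendritic-like cells were 52.0% ± 5.62 and 27.7% ± 4.35 (unthinned 76.5% ± 3.63 and 58.9% ± 5.56). All 3 shares were lower in expanded libraries at equal depth, by more than the SD. In cluster 1, the Tnf shares were 13.4% ± 1.70 and 19.6% ± 4.05 (unthinned 33.3% ± 1.36 and 53.2% ± 9.43). In neutrophil-like cells the Tnf share was higher in expanded libraries by far fewer percentage points at this depth than unthinned, as given at the end. In fibroblast-like cells at the same depth the background shares were 0.234% and 0.305% for Tnf, 0.473% and 0.378% for Cd83 and 0.139% and 0.0833% for Tnip3, with median depths before thinning of 10944 and 15603 UMIs in fibroblast-like and 6099 and 11998 in macrophage or monocyte-like cells.

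Other genes of the pathway were read from 3 lists. In macrophage or monocyte-like cells, the signalling machinery (kinases, ubiquitin enzymes, inhibitors and subunits other than the members) had 3 higher and 8 lower of 34 tested. Tradd, the adaptor of TNF receptor 1 (log2 fold change 0.99, adjusted p = 0.010), and Rbck1, a subunit of the linear ubiquitin ligase (0.57, adjusted p = 0.048), rose. Tnip2, which encodes the third A20-binding protein ABIN-2 (-1.47, adjusted p = 0.0034), and Nfkbid, which encodes the nuclear inhibitor IkappaBNS (-1.42, adjusted p = 0.0027), fell. Receptors and adaptors had 2 higher and 3 lower of 19, with Tlr6 (1.22) and the interleukin 1 receptor accessory chain Il1rap (0.87) higher and Tnfrsf12a (-1.0) and the adaptor Ticam1 (-1.0) lower. Target genes outside the chemokines had 2 higher and 4 lower of 23. Ptgs2, which encodes cyclooxygenase 2, rose from a mean of 273 to 940.4 CPM (1.69, adjusted p = 0.0099), and Mmp9, a matrix protease, fell (-3.40, adjusted p = 0.0088). The share of all genes called was 12.5% higher and 14.6% lower. The clusters that make up the class differ between the arms, and Ptgs2 had the opposite sign within each of them, with a log2 fold change of -0.82 in cluster 5 (means of 2152 and 1084 CPM, adjusted p = 0.34) and -0.38 in cluster 7 (106 and 71.0 CPM, adjusted p = 0.56).

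In dendritic-like cells the machinery had 3 higher and 7 lower of 33 tested, with the ubiquitin ligase Birc2 (1.31, adjusted p = 0.0087) and Tradd (0.93) higher and the coactivator Bcl3 (-0.81) and the ribonuclease gene Zc3h12a (-0.71) lower. Receptors and adaptors had 4 higher and 5 lower of 20, with Myd88 (0.75) and Tnfrsf11a, the receptor for RANKL (0.70), higher and the interleukin 33 receptor Il1rl1 (-1.60) and Il1r1 (-1.03) lower. Among target genes, with 1 higher and 3 lower of 23, Il12b, the p40 chain of interleukin 12, rose from a mean of 10.7 to 106 CPM (2.85, adjusted p = 0.034). In cluster 1, which held most of the class, Il12b was too low to test, with means of 1.84 and 22.0 CPM, and in cluster 20 it did not pass (59.1 and 306 CPM, log2 fold change 1.56, SE 0.78, adjusted p = 0.24). Il12b was among the leading genes of 1 of the 2 groups of migratory dendritic cells, which together were 61 of 2918 control and 131 of 973 expanded dendritic-like cells. Vcam1 (-3.11) and Ebi3 (-0.85) fell. These counts stand beside 7.93% of all genes called higher and 10.0% lower.

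In fibroblast-like cells receptors and adaptors had 7 higher and 0 lower of 18 tested, beside 18.1% of all genes called higher, led by Il1rl1 (3.38, adjusted p = 0.00018) and Cd40 (1.77, adjusted p = 0.00048), while the machinery had 1 higher and 11 lower of 35, with Ripk1 (-0.93) and Birc3 (-0.90) lower, beside 17.9% of all genes called lower. Targets had 3 higher and 6 lower of 16, and Sod2, the mitochondrial superoxide dismutase, rose from 176 to 770.0 CPM on average (1.90, adjusted p = 0.00025). Within cluster 4, which was numerous in both arms, receptors and adaptors had 4 higher and 0 lower of 17, the machinery 0 and 4 of 34 and targets 3 and 5 of 16, beside 12.1% of all genes called higher and 12.2% lower. Il1rl1 (3.08, adjusted p = 0.00047) and Sod2 (1.78, adjusted p = 0.00028) rose there, and Sod2 rose in clusters 19 (2.12) and 26 (2.81) too.

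In endothelial-like cells targets had 0 higher and 10 lower of 16, with the leukocyte adhesion genes Vcam1 (-2.63, adjusted p = 0.0091) and Sele, at 498 and 142 CPM (-2.03, adjusted p = 0.0067), lower, and the machinery had 0 higher and 6 lower of 33, beside 5.35% of all genes called higher and 6.82% lower. In lymphatic endothelial-like cells targets had 1 higher and 6 lower of 12, with Il6 (-2.88) and Pim1 (-1.20) lower, beside 5.67% of all genes called higher and 5.87% lower. In pericyte or smooth muscle-like cells targets had 0 higher and 4 lower of 13, with Gadd45b (-1.40) and Csf1 (-0.79) lower, beside 8.65% and 10.6% of all genes.

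Over 138 units of 1 class in 1 library, the likeness of other genes to each member was described by Pearson's r of log2(CPM + 1) among 8855 genes. The units share libraries and depth, and no p is given. Tnf was most like Fcer1g, which encodes the common gamma chain of Fc receptors (r = 0.913), Cd53 (0.908) and Lilrb4a (0.908). Tnip3 was most like the dermal dendritic cell lectins Cd209e (0.889) and Mgl2 (0.882) and Ptpro (0.877). Cd83 was most like Dok2 (0.903), Slamf7 (0.879) and Myo1g (0.874). Nfkb1 was most like Ell2 (0.782), Birc3 (0.771) and Pim1 (0.751), and Nfkb2 shared Birc3 (0.775) and Pim1 (0.764), with Rab8b (0.72). For Nfkbia the closest were Ets2 (0.721), Rab20 and Csf3, for Nfkbiz Csrnp1 (0.722), Sgms2 and Hdc, and for Relb Skil (0.635), Lncpint and Pde4b. Tnfaip3 was most like Kif23 (0.762), Arhgap25 and Arpc3, and Tnip1 most like Smap2 (0.774), Rhof and Irak2. Among the members themselves r was 0.787 for Nfkb1 and Nfkb2, 0.705 for Nfkbia and Nfkbiz, 0.705 for Nfkb2 and Relb, and 0.696 for Tnip3 and Cd83.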

How the data were processed

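The files were matrices of UMI counts per gene and cell barcode for 10 mRNA libraries, deposited by the authors without normalization and made with Cell Ranger 6.1.2 on mm10, per the submitters' processing notes. For the hashed libraries the matrices also held the antibody counts. For the control samples of day 1 round 2 the titles give the mRNA and hashing libraries the other way round from the descriptions, and the library type was taken from the description. Cells were dropped below 200 genes or 500 UMIs, or above 10% of UMIs from mitochondrial genes, and doublets were removed with Scrublet (scanpy 1.11.5, Python 3.11.15) and as cells with more than 1 hashtag. Scrublet marked under 0.5% of the cells in 4 of the libraries, where hashtags removed most doublets. Cells were clustered (leidenalg 0.10.2, resolution 1) on 2000 variable genes that excluded the members, the other NF-kappaB lists and mitochondrial genes, and named by markers with a scoring rule chosen after the data were seen, so that class names may differ from another annotation. Hashtags were assigned with HTODemux (Seurat 5.3.0).

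The UMI counts of all cells of a class in a library, or in a mouse, were added up where there were at least 20 cells. Low genes were removed by filterByExpr, and TMM gave the scaling. In edgeR 4.0.16, run in R 4.3.3, a quasi-likelihood model with terms for arm and day, or for mice of day 2 arm and sequencing round, was fitted. A class needed 4 libraries or 3 mice per arm. The p-values were adjusted over all genes tested, never over the members alone. The members and the gene lists were chosen with earlier results of these data known. All 10 members are named. From each other list up to 2 genes per direction are named, those with the largest change that passed, and for each member the 3 genes with the highest correlation among genes of at least 10 CPM. The labels give both arms of a day the same sequencing rounds, and this pairs the libraries. Deviations from the arm mean of the libraries of a round correlated at 0.02 to 0.303 between the arms. On counts simulated for 6 classes (9690 genes in macrophage or monocyte-like, 9602 in dendritic-like, 12434 in fibroblast-like, 7907 in T cell-like, 9787 in basal keratinocyte-like and 9466 in endothelial-like cells), the test recovered 54%, 72%, 71%, 65%, 71% and 78% of genes changed by 1 log2 unit, in that order, and 93%, 98%, 98%, 97%, 97% and 100% of those changed by 2. Of its calls 6.37%, 7.61%, 5.06%, 4.71%, 5.62% and 3.26% were false. In the simulated counts only a small set of genes was changed, in equal numbers up and down and with no effect of the day. Many more genes were called in the data of several classes, so these rates need not hold there. Alternatives tried were the block, other scalings, DESeq2 1.42.0, no filter, thinning, a stricter mitochondrial limit of 5%, clustering resolution 2, another hashtag rule and leaving out libraries or mice. Gene positions and promoters are from RefSeq tables of GRCm38.p6, matched by symbol.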

Additional observations from a re-analysis of the deposited data

Results flagged for a closer look

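The expansion difference was not alike in dendritic-like and in macrophage or monocyte-like cells for 6 members, by a test of the difference itself (edgeR with the library as a block). On the log2 scale, dendritic minus macrophage or monocyte, the difference was 1.69 for Tnf, 1.21 for Cd83, 0.99 for Tnip3, 0.56 for Relb, 0.47 for Nfkbiz and -0.77 for Tnip1. Between the single clusters 1 and 5 it passed for 2 members, with 1.14 for Tnf and 0.90 for Nfkbiz. Both tests were added after the data were seen. The class-level calls for Relb, Nfkbiz and Tnip1 were lost in 6, 8 and 2 of 10 fits without 1 library. Those between clusters 1 and 5 were lost in 5 of 9 fits for Tnf and 6 of 9 for Nfkbiz. Both classes differed between the arms in their clusters, and the part of that in the differences was not tested.

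Of 192 groups of 5 libraries examined for a library far from the others, 8 held one, and chance gives about 1 in 20 groups. The expanded library of day 4 was far above the other expanded libraries for Nfkbia (2114 CPM) and for Cd83 (463 CPM) in NK or innate lymphoid-like cells, which numbered 37 there. It was also the high one for Tnf in fibroblast-like cells (9.94 CPM) and for Tnip1 in pericyte or smooth muscle-like cells (73.4 CPM). The control library of day 2 round 1 was the low one among controls for Tnfaip3 in endothelial-like cells (87.6 CPM) and for Relb in pericyte or smooth muscle-like cells (45.9 CPM). The control library of day 1 round 1 was the low one for Tnf in T cell-like cells (29.1 CPM), and the expanded library of day 1 round 1 for Relb in fibroblast-like cells (34.9 CPM).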

How the results depend on the processing

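No call of a member in the main fits reversed its direction under any alternative run, and the cause of each change below was not tested. Members that were not called in the main fits were not compared in this way. With no filter on low counts, members called numbered 5 in place of 2 in dendritic-like cells, 4 in place of 2 in lymphatic endothelial-like cells, 2 in place of 1 in cluster 5, 29 in place of 16 over all classes, 2 in place of 1 in dendritic-like cells of day 4 mice and 1 in place of 0 in fibroblast-like cells of day 2 mice and in each of T cell-like, NK or innate lymphoid-like, basal keratinocyte-like, Schwann-like and melanocyte-like cells. With the replicate block, which pairs the rounds, 4 in place of 2 members were called in dendritic-like cells and 2 in place of 1 in cluster 5 and in cluster 20, and no other of these counts moved by over 1.5 times. Over mice no block was run. With DESeq2 it was 2 in place of 1 in cluster 5. Thinning to 2000 UMIs gave 1 in place of 2 in dendritic-like, endothelial-like and fibroblast-like cells, 0 in place of 2 in lymphatic endothelial-like cells and 3 in place of 6 in cluster 1. Resolution 2 gave 1 in place of 2 in dendritic-like cells, and a mitochondrial limit of 5% gave 1 in place of 2 in lymphatic endothelial-like cells. Round 2 alone, with fewer mice, gave 3 in place of 6 in macrophage or monocyte-like cells of day 2.

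Scaling by library totals, an alternative added after the data were seen, gave 1 in place of 2 in fibroblast-like and in lymphatic endothelial-like cells and 2 in place of 1 in dendritic-like cells of day 4 mice. It moved the median log2 fold change of all genes to 0.24 in fibroblast-like, 0.23 in dendritic-like, 0.12 in endothelial-like and pericyte or smooth muscle-like and 0.11 in macrophage or monocyte-like cells. Genes called higher and lower then numbered 3736 and 1197 in place of 2255 and 2220 in fibroblast-like, 1789 and 500 in place of 761 and 962 in dendritic-like, 846 and 446 in place of 506 and 646 in endothelial-like, 959 and 600 in place of 631 and 774 in pericyte or smooth muscle-like and 1490 and 1114 in place of 1212 and 1410.0 in macrophage or monocyte-like cells. In the same way they numbered 494 and 297 in place of 366 and 379 in lymphatic endothelial-like cells, 1426 and 409 in place of 727 and 785 in cluster 1, 1026 and 627 in place of 655 and 858 in cluster 9, 206 and 189 in place of 150 and 293 in cluster 7, 391 and 136 in place of 138 and 248 in cluster 20 and 1078 and 726 in place of 864 and 984 in the difference between dendritic-like and macrophage or monocyte-like cells. Over mice they numbered 1199 and 527 in place of 749 and 865 in dendritic-like cells of day 2 and 781 and 263 in place of 367 and 395 on day 4, 1698 and 653 in place of 1145 and 1006 in fibroblast-like cells of day 2 and 2126 and 741 in place of 1307 and 1207 on day 4, and 1230.0 and 786 in place of 1016 and 1074 in macrophage or monocyte-like cells of day 2 and 1370 and 773 in place of 896 and 1010.0 on day 4.

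Leaving out 1 library, which also leaves fewer samples, gave 1 to 3 calls in dendritic-like and endothelial-like cells, 1 to 2 in lymphatic endothelial-like cells, 3 to 6 in cluster 1, 0 to 1 in cluster 5, 0 to 4 in cluster 7, 0 to 1 in neutrophil-like cells, 3 to 6 in the difference between dendritic-like and macrophage or monocyte-like cells, 0 to 2 in that between clusters 1 and 5 and 12 to 17 over all classes. Leaving out 1 mouse gave 1 to 2 in dendritic-like and 0 to 1 in fibroblast-like cells of day 4. Unthinned, the difference in the share of cells with a UMI, in percentage points, was -17.6 in place of -24.3 for Tnip3 in dendritic-like, -3.12 in place of -15.3 for Tnf and -22.4 in place of -31.5 for Cd83 in macrophage or monocyte-like, 13.1 in place of 2.24 for Tnf in neutrophil-like and 19.9 in place of 6.23 for Tnf in cluster 1 cells.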
